A study of Drosophila melanogaster with 2 samples.

Results

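The 31 muscle structural genes described here encode parts of the sarcomere and of the integrin attachment of muscle. They were taken from a fixed list of named genes, and all 31 were found among the 13945 protein-coding genes on the 6 main chromosome arms of the Drosophila melanogaster genome (dm6, gene models of Ensembl release 115, in which Unc-89 is listed as Obsc). The list holds 6 thick filament genes, 6 thin filament genes, 7 troponin genes, 8 genes of the titin-like, Z disc, M line and nuclear linker proteins, and 4 attachment genes. The rule that defines the list uses no binding signal, but the list was chosen with earlier results of these data known.

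The data are chromatin immunoprecipitation sequencing (ChIP-seq) peak lists for Snail. There was 1 group: whole embryos aged 0 to 24 h, of the strain sna-GFP, whose flies express a fusion of Snail with eGFP. There were 2 biological replicates, and no control samples were analysed here. The precipitating antibody recognised GFP, although the antibody field names sna, and the chromatin had been sonicated to fragments of 200 to 800 bp. Muscle was therefore measured together with all other tissues and over all embryonic ages, so that a fragment bound in few cells and one bound weakly in many cells cannot be told apart. Depth is unknown because the files hold no read counts, and no source used here gives the scale of the signal.

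The sarcomere is the contractile unit of striated muscle: thick filaments of myosin slide along thin filaments of actin, tropomyosin and the troponin complex, which makes contraction depend on calcium. Titin-like proteins and Z disc proteins hold the filaments in register, and integrins fix the muscle ends to tendon cells. Snail is a zinc-finger protein that represses transcription in the early mesoderm, the tissue from which these muscles later form, and it binds sites of the form CAGGTG, one form of the E-box, whose general form is CANNTG.

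Peaks within 5000 bp of a muscle gene fell into those nearest to a start of that gene and those nearest to a start of a neighbour, and the sequences below show examples of both. Each is a stretch around a peak summit from the NCBI copy of the Release 6 assembly (dm6), written 5′ to 3′ on the strand of the muscle gene and kept clear of all but a few untranslated bases. Capitals mark the E-box CANNTG, the motif CGATA (bound by the boundary factor BEAF) and the motif GAGAG (bound by GAGA factor) on either strand, so that in reverse CAGGTG reads CACCTG while CGATA reads TATCG and GAGAG reads CTCTC. The Act88F stretch at chr3R:15437951-15438101 (plus strand) and the sls stretch at chr3L:2107613-2107763 (minus strand) lie at summits with an own start nearest.
Act88F peak: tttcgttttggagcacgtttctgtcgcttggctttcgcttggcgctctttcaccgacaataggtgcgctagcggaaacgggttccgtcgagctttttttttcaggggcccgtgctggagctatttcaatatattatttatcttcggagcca
sls peak: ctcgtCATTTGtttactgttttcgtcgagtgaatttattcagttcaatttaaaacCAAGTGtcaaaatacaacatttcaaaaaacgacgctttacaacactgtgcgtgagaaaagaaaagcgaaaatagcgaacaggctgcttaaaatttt
The stretches at mys, chrX:8061408-8061558 (plus strand), and at fln, chr3L:19991745-19991895 (minus strand), are shown because they carry the strongest peaks of the set, both at starts of other genes.
mys peak: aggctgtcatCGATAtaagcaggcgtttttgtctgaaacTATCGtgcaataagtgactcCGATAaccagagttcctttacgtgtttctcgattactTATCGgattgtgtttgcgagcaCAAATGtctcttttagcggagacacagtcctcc
fln peak: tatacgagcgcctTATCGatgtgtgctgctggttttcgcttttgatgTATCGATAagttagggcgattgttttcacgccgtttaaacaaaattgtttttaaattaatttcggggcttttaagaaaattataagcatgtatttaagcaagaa
The stretches near Prm, chr3L:8749325-8749475 (minus strand), and downstream of TpnC73F, chr3L:17051225-17051306 (plus strand), hold the only CAGGTG matches of the 18 summits, read here as CACCTG.
Prm peak: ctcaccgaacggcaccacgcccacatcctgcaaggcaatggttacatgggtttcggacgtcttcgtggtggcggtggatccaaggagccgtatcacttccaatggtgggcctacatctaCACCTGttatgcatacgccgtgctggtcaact
TpnC73F downstream peak: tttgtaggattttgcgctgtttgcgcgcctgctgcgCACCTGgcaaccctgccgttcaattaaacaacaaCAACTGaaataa
The last stretch, at chr3L:17045804-17045954 (plus strand), is a candidate region upstream of TpnC73F that was not in the thresholded list.
TpnC73F start-site region: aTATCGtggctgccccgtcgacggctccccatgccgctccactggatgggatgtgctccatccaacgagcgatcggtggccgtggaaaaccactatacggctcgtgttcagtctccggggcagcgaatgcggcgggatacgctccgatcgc

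In these stretches the Act88F sequence holds none of the 3 capitalised motifs. The sls sequence has 2 E-boxes, neither of them CAGGTG. The mys sequence has 4 CGATA matches and 1 E-box, and the fln sequence has 3 CGATA matches and no E-box. A match is a run of letters and not a measured binding site.

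A peak of the pooled thresholded list, which holds the regions kept at an irreproducible discovery rate (IDR, which is low where a region ranks alike in repeats) of 0.01, had its summit within 5000 bp of 14 of the 31 muscle genes (45.2%). The share among coding genes was 52.7%. The 14 were Prm, fln, Act88F, Tm1, wupA, TpnC47D, TpnC73F, sls, Zasp52, Mlp84B, Msp300, if, mew and mys. By role these were 2 of 6 thick filament genes, 2 of 6 thin filament genes, 3 of 7 troponin genes, 4 of 8 titin-like, Z disc and linker genes, and 3 of 4 attachment genes. The 17 others were Mhc, Mlc1, Mlc2, Mf, Act57B, Act79B, Act87E, Tm2, up, TpnC4, TpnC41C, TpnC25D, bt, Unc-89, Zasp66, Mlp60A and kon. The members were chosen with results of these data known, so their counts are set beside the share of all coding genes and carry no test.

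Peaks at the genes' own starts were fewer. A summit lay within 500 bp of a start of Tm1, Zasp52 and mys, 3 of 31 (9.68%), against 27.5% of coding genes. A start of the muscle gene itself was the nearest start to a summit for Act88F, TpnC47D, sls and Zasp52, 4 of 31 (12.9%), against 22.4% of coding genes. Only Zasp52 was in both sets, because at Tm1 and mys a start of another gene lay closer to the summit.

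Each replicate's own thresholded list gave fewer genes. In replicate 1 a summit lay within 5000 bp of 7 members (22.6%), namely fln, Tm1, Zasp52, Mlp84B, Msp300, mew and mys, against 45% of coding genes. In replicate 2 it lay near 5 members (16.1%), fln, Tm1, Msp300, if and mys, against 36.7%. Summits at own starts were found for Tm1, Zasp52 and mys in replicate 1 (9.68%, coding genes 21.7%) and for Tm1 and mys in replicate 2 (6.45%, coding genes 16.8%). The members' share was below that of coding genes in the pooled list and in both replicates, for both counts. Within 5000 bp in the pooled list, at 45.2% against 52.7%, the gap is a matter of a few genes. The pooled list comes from the same 2 replicates, so the lists are not independent. None (0) of the 7 troponin genes had a summit in either replicate's own list. In the authors' list for the pair of replicates, TpnC47D and up had a summit within 5000 bp, and wupA and TpnC73F did not.

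**Figure D1:**
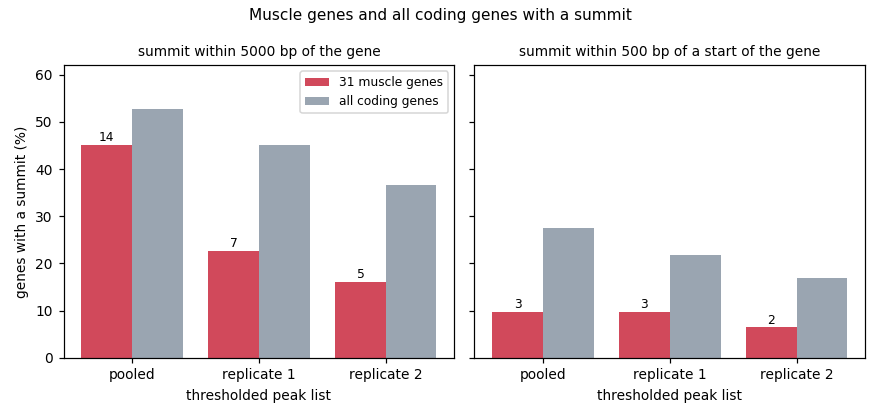
Percentage of the 31 muscle genes (red, with the number of genes above each bar) and of all 13945 coding genes (grey) with a peak summit within 5000 bp of the gene (left) or within 500 bp of a start of the gene (right), in the pooled list and in each replicate's own thresholded list. The red bar is below the grey bar in all 6 pairs, which are not independent because the pooled list comes from the same replicates.

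Muscle genes are longer than most genes: their median length was 8.59 kb against 2.17 kb for coding genes, and 6 of them (Mhc, Mf, Tm1, Tm2, up and Msp300) have 5 or more annotated starts. Counted by the span with 5000 bp on each side, 5 of 14 members up to 15000 bp had a summit (35.7%, coding genes 49%). In the bin from 15000 to 30000 bp it was 3 of 9 (33.3%, coding genes 65.2%). Above 30000 bp it was 6 of 8 (75%, coding genes 60.9%). The bins hold 8 to 14 genes and were chosen after the values were seen. In each of them the members' share is a matter of a few genes away from the share of coding genes, and no difference is read from them.

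The 14 genes had 18 distinct summits in reach, 13 of them nearest to a start of another gene and 5 nearest to an own start. Their median signal was 91.8, against 109 for the whole pooled list, and 7 of the 18 were above that list median. Of the 18, 9 overlapped a peak of the replicate 1 list, 6 one of the replicate 2 list, 4 both and 7 neither. Over the whole pooled list 44.4% overlapped both and 26% neither. Of the 13 summits nearest to another gene, 12 were at promoters and 1 was in an intron, upstream of fln. The 5 nearest to an own start comprised 1 promoter, 1 coding exon, 2 introns and 1 intergenic site, where 83.9% of all pooled peaks were at promoters. None (0) of these 5 was in both replicates' own lists. In the authors' list for the pair of replicates, the members nearest to a summit were Act88F, TpnC47D, sls, Zasp52 and mew (16.1%, coding genes 20.5%).

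**Figure D2:**
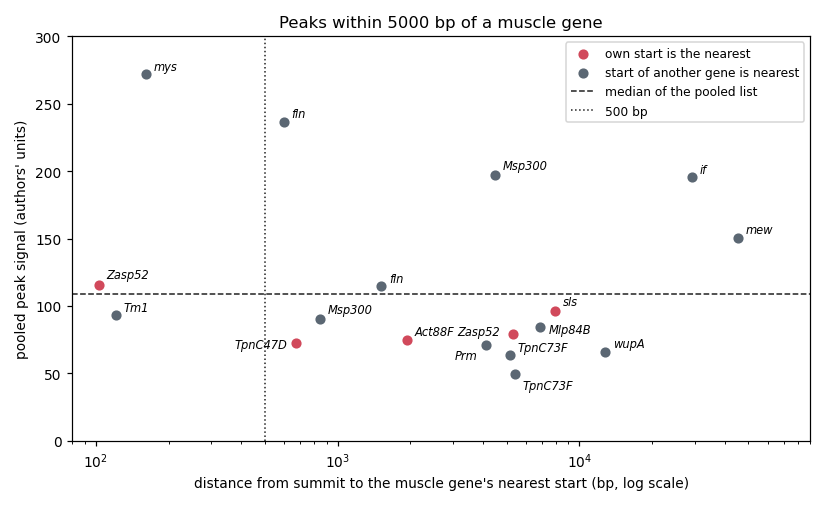
Signal of the 18 pooled peaks within 5000 bp of a muscle gene (vertical axis, authors' units) against the distance from the summit to the nearest start of that muscle gene (horizontal axis, bp, log scale). Red points have an own start nearest, grey points a start of another gene. The dashed line is the median of the pooled list, 109, and only the Zasp52 promoter peak among the red points is above it.

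Among the thick filament genes, Prm encodes paramyosin and fln encodes flightin, both bound to the myosin filament. The Prm peak at chr3L:8749142-8749657 had a pooled signal of 71.0 and candidate signals of 37.8 in replicate 1 and 33.2 in replicate 2. It lay 4090 bp upstream of Prm and 326 bp from the start of CG13306, and was in neither replicate's own list. The sequence printed above holds its 1 CAGGTG. Upstream of fln a strong peak at chr3L:19991689-19991893 had a pooled signal of 237, with 161 in replicate 1 and 88.1 in replicate 2, and it was in both replicates' lists. Its summit was 600 bp upstream of fln and 67 bp from a start shared by Nca (neurocalcin, a calcium-binding protein of neurons) and CG7646. A further peak at chr3L:19992480-19992995 had a signal of 114, with 55.1 in replicate 1 and 70.8 in replicate 2, 1518 bp upstream of fln in an intron, and was in the list of replicate 2 only. Mhc (myosin heavy chain), Mlc1 and Mlc2 (its light chains) and Mf (myofilin) had no summit in reach, and their nearest summits were 23189, 17095, 28397 and 14858 bp from the gene.

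Of the 4 muscle actin genes, Act88F, the actin of indirect flight muscle, was the only one with a summit within 5000 bp. That peak, at chr3R:15437768-15438283, had a pooled signal of 75.1, with 45.8 in replicate 1 and 36.6 in replicate 2. It was intergenic, 1943 bp upstream of the start, with no other start closer, and was in neither replicate's own list. The nearest summits to Act57B, Act79B and Act87E were 14521, 78714 and 22598 bp away. Tm1, a tropomyosin gene with 8 starts, had a peak at chr3R:15277841-15278356 with a pooled signal of 93.1, 50.6 in replicate 1 and 55.3 in replicate 2, in both replicates' lists. It lay 121 bp upstream of Tm1 and 10 bp from the start of MRG15, which encodes a chromodomain protein. The other tropomyosin gene, Tm2, begins 1414 bp past the end of Tm1 and had its nearest summit 18057 bp away.

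Troponin I (wupA) had a summit 3624 bp beyond its 3′ end, in a peak at chrX:18101686-18102201 with a pooled signal of 65.9, 34.5 in replicate 1 and 39.7 in replicate 2. That summit was 26 bp from the start of Taf8, a subunit of the general transcription factor TFIID. TpnC73F, a troponin C gene, had overlapping peaks at chr3L:17051042-17051557 (signal 63.3) and chr3L:17051311-17051826 (signal 49.5), 23 and 292 bp from the start of rogdi. The replicate regions under both had signals of 41.0 and 30.9. In TpnC47D, a further troponin C gene, the peak at chr2R:11274355-11274870 (signal 72.3, replicates 39.3 and 40.8) had its summit in a coding exon 673 bp downstream of the gene's only start. All 4 peaks were below the list median and in neither replicate's own list. In the pooled list troponin T (up) had its nearest summit at 9503 bp, TpnC25D at 18481 bp, TpnC41C at 47757 bp and TpnC4 at 149077 bp, the farthest of the 31.

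The giant and Z disc genes held 2 of the 3 peaks whose summit lay inside a member. In sls, which encodes the titin-like proteins Sallimus and kettin, the peak at chr3L:2107430-2107945 had a pooled signal of 96.0, with 54.7 in replicate 1 and 47.0 in replicate 2. It lay in an intron 7923 bp downstream of the start and was in neither replicate's own list. Zasp52, a PDZ and LIM protein of the Z disc, had a promoter peak at chr2R:15816849-15817364 with a pooled signal of 116, 70.4 in replicate 1 and 44.3 in replicate 2, 103 bp upstream of a start. A second Zasp52 peak at chr2R:15781135-15781650 (signal 79.3, replicates 45.8 and 37.3) was intronic and 5331 bp upstream of the nearest Zasp52 start. Both were in the list of replicate 1 and not in that of replicate 2. Zasp52 was the only member with a peak of the pooled thresholded list at its own start that no other start lay closer to.

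Mlp84B encodes a muscle LIM protein of the Z disc, and its peak at chr3R:7109608-7110123 (signal 84.6, replicates 54.0 and 35.5) lay 2984 bp past the gene. The nearest start to it was that of lncRNA:CR45906 at 146 bp, and the nearest coding gene was Alh at 1442 bp. Msp300 encodes a nesprin that links nuclei to the cytoskeleton of the muscle. A peak at chr2L:5096301-5096460 upstream of it had a pooled signal of 197, with 142 in replicate 1 and 80.4 in replicate 2, and was in both replicates' lists, but its summit was 11 bp from CG4230 and 4495 bp from Msp300. The peak closer to Msp300, at chr2L:5099771-5100286 (signal 90.4, replicates 48.6 and 28.6), lay 848 bp upstream and 173 bp from ND-13A, a subunit of respiratory complex I. No summit was in reach of bt (projectin), Unc-89 (obscurin), Zasp66 or Mlp60A, whose nearest were at 19771, 7075, 23471 and 5523 bp.

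The strongest signal of the 18 peaks was at an attachment gene. At mys, which encodes the integrin beta chain used at muscle ends, the peak at chrX:8061382-8061703 had a pooled signal of 272, with 142 in replicate 1 and 104 in replicate 2. It was in both replicates' lists and stood at rank 450 of 4221, with 89.3% of pooled peaks lower. Its summit was 162 bp upstream of mys and 47 bp from the start of fs(1)h, which encodes a bromodomain protein. The integrin alpha chain genes if and mew had peaks beyond their 3′ ends. The peak of if at chrX:16751661-16752176 (signal 196, replicates 89.1 and 104) was 9 bp from the start of goe and in the list of replicate 2 only. The peak of mew at chrX:13211680-13211881 (signal 151, replicates 90.2 and 56.2) was 94 bp from the start of sno (strawberry notch) and in the list of replicate 1 only. Both lay far from the starts of the integrin genes, at 29155 and 45415 bp. The gene kon, a transmembrane protein of muscle ends that reach for tendon, had its nearest summit 33165 bp away.

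By the nearest summit, the members just inside the 5000 bp limit were Prm at 4090 bp and wupA at 3624 bp, and those just outside were Mlp60A at 5523 bp and Unc-89 at 7075 bp. The median distance from gene to nearest summit was 7075 bp for the 31 members and 4193 bp for coding genes. Among genes with no summit within 5000 bp it was 19771 bp for the 17 members and 20308 bp for coding genes.

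Weaker regions below the IDR limit give a value for more genes. In the ranked list of the pooled replicates, with 105842 candidate regions on the main arms, the strongest region with a summit within 500 bp of a start was taken for each gene. Such a region was found for 21 of 31 members (67.7%) against 75.8% of coding genes. In replicate 1 it was found for 18 (58.1%, coding genes 64.5%) and in replicate 2 for 25 (80.6%, coding genes 75.5%). The difference from coding genes thus changed direction between the replicates. Where a region was found, the median signal of members was below that of coding genes in all 3 lists, at 34.7 against 55.0 pooled, 25.6 against 38.8 in replicate 1 and 22.3 against 27.4 in replicate 2. A gene with no region was ranked at the bottom, and the median member then exceeded 43.2% of coding genes in the pooled list, 40.3% in replicate 1 and 50.9% in replicate 2.

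**Figure D3:**
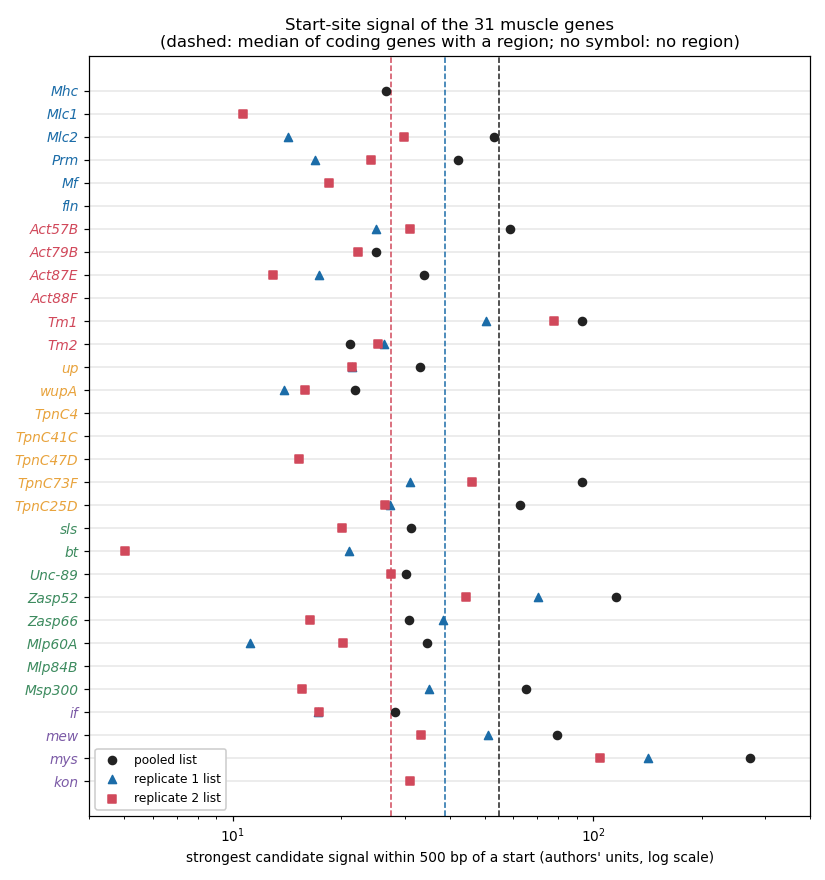
Strongest candidate signal within 500 bp of a start for each of the 31 muscle genes (horizontal axis, authors' units, log scale) in the pooled list (circles), replicate 1 (triangles) and replicate 2 (squares), with gene names coloured by role. Dashed lines are the medians of coding genes that have a region, 55.0, 38.8 and 27.4 in the same order. The genes to the right of the line in each list are Tm1, Zasp52, mew and mys.

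The 5 strongest start-site signals belonged to mys, Zasp52, TpnC73F, Tm1 and mew. That of mys (272 pooled, 142 and 104 in the replicates) exceeded 95.1% of coding genes, and that of Zasp52 (116, 70.4 and 44.3) exceeded 82.4%. TpnC73F had a region 184 bp upstream of its start, shown above, with 93.3 pooled, 31.1 in replicate 1 and 46.2 in replicate 2, and its IDR of 0.0246 kept it out of the thresholded list. At Tm1 the values were 93.1, 50.6 and 77.7, the last from a region of replicate 2 other than the one at the MRG15 start. At mew a region 157 bp downstream of a start had 79.6, 51.1 and 33.3, with an IDR of 0.0137. Of these 5 genes, TpnC73F and Tm1 had the higher replicate signal in replicate 2, and the other 3 in replicate 1. The replicates differ in level, with medians of 38.8 and 27.4 for coding genes that have a region. By the share of coding genes with a lower signal, mys stood at 93.8% in replicate 1 and 94% in replicate 2. The other genes kept their direction by that share.

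The weakest start-site signals among members that had one were those of Tm2 (21.2 pooled, 26.3 in replicate 1 and 25.3 in replicate 2), wupA (21.8, 13.9 and 15.9) and Act79B (25.0 pooled and 22.3 in replicate 2, with none in replicate 1). At Mhc, the muscle myosin itself, the pooled signal was 26.7, neither replicate had a region, and the IDR was 0.844. At if the values were 28.2, 17.3 and 17.4. All 5 were below the pooled median of coding genes with a region. In the pooled list 10 members had none, namely Mlc1, Mf, fln, Act88F, TpnC4, TpnC41C, TpnC47D, bt, Mlp84B and kon. For fln, Act88F, TpnC4, TpnC41C and Mlp84B no list had one, 5 of 31, against 15.7% of coding genes. The peaks near fln, Act88F and Mlp84B described above were therefore not at their starts even at the level of weak candidates.

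By role, the median share of coding genes with a lower pooled start-site signal was 19.8% for the thick filament genes, 42.3% for the thin filament genes, 34.8% for the troponin genes, 43.9% for the titin-like, Z disc and linker genes and 57.3% for the attachment genes. The attachment group was highest and the thick filament group lowest in the pooled list and in replicate 1, at 60.2% and 0% in the latter. In replicate 2 the same groups stood at 68% and 40.3%, again highest and lowest. Each group holds 4 to 8 genes and spans a wide range, the attachment genes from 0% for kon to 95.1% for mys.

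Over whole gene spans, 795 distinct candidate regions of the pooled ranked list lay within 5000 bp of a muscle gene, with a median of 16 per member and a range from 2 to 123. Per kb of span the median was 0.901, against 1.01 for coding genes, and 8 members were above the coding median. The replicates gave 0.453 against 0.5 and 0.900 against 0.963. The number of regions followed the length of the gene: Msp300 held 123, sls 94, Zasp52 59, Mhc 45, bt 40, and Unc-89 and mew 38 each. Density was highest at Mlp60A (1.69 per kb) and Mhc (1.40 per kb), which had no thresholded peak, and lowest at TpnC41C (0.134 per kb). The median of the strongest signal per gene was 65.9 for members and 82.4 for coding genes. The neighbours Tm1 and Tm2 share 6 of these regions.

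**Figure D4:**
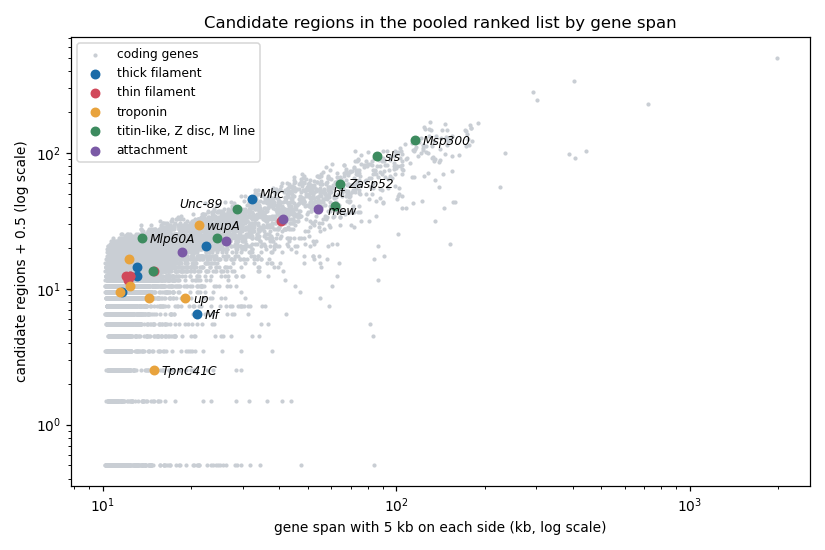
Number of candidate regions in the pooled ranked list, plus 0.5 (vertical axis, log scale), against the gene span with 5 kb on each side (horizontal axis, kb, log scale) for all coding genes (grey) and for the muscle genes coloured by role. Long genes hold more regions, and TpnC41C, with 2 regions, and Mf, with 6, are low for their length.

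The candidate regions of muscle genes lay in coding exons more often than those of the whole list, 41.8% against 21.6%, and in intergenic sequence less often, 5.03% against 20.2%. Member regions were taken only from gene spans with 5000 bp on each side. Intergenic sequence farther away could not enter, so the lower intergenic share follows in part from the rule. Coding bases made up 35.1% of the member spans and 17.1% of the arms. Gene by gene, the share of regions in coding exons was above the share of coding bases in the span for 16 members and not above it for 15. In 3 of the giant genes the shares lay near each other, with 66 of 94 regions in sls (70.2%, with 65.5% of its span coding), 24 of 38 in Unc-89 (63.2% and 63.8%) and 74 of 123 in Msp300 (60.2% and 60.3%). In the giant gene bt they did not, with 27 of 40 (67.5% and 48.9%). The share of regions was above the coding share by at least 10 percentage points in 6 members, Act88F, up, bt, Zasp52, if and kon, with 59.1% against 30.3% at kon and 33.9% against 17.6% at Zasp52. It was below by as much in TpnC73F (18.8% against 29.2%) and mys (16.7% against 34.1%). A summit within 500 bp of a start was classed as promoter even where it lay in a coding exon. The share of regions and the share of bases are therefore not like measures. Promoters took 11 of 16 regions at TpnC73F and 7 of 18 at mys, and the effect of this was not tested.

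Several members had a region just outside the IDR limit of 0.01. The strongest region that was not in the thresholded list had an IDR between 0.01 and 0.05 in 14 members: Prm, Act87E, up, wupA, TpnC4, TpnC73F, sls, bt, Unc-89, Zasp52, Zasp66, if, mew and mys. This was 45.2% of the members, against 22.6% of coding genes, with no matching on gene length. At mys it was a region, chrX:8061463-8061703, that lies inside the thresholded mys peak and is counted in the shares given here. At Unc-89 it was a region of signal 64.0 with an IDR of 0.0114, 144 bp from the start of CG4324. At Zasp66 it had a signal of 75.3 and an IDR of 0.0136, 34 bp from the start of GAPsec and 504 bp upstream of Zasp66. At bt it had a signal of 61.3 and an IDR of 0.0362, 1443 bp upstream of bt with no start closer. The strongest such region was nearest to an own start in 17 members (54.8%), against 32.2% of coding genes, again with no matching on length.

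A few candidate regions had an IDR of at most 0.01 and were still not in the thresholded list used here, 139 of 4360 on the main arms. The sources used here do not give the reason. Of these, 5 lay near members. The strongest was in an intron of Tm1 at chr3R:15286671-15287186, 510 bp downstream of a Tm1 start, with a pooled signal of 129, 51.7 in replicate 1, 77.7 in replicate 2 and an IDR of 0.000669. A further Tm1 region at chr3R:15290512-15291027 had a signal of 66.2 and lay 174 bp upstream of a Tm1 start and 29 bp from CG45218. The other 3 lay around Alh, past the end of Mlp84B, with signals of 60.4, 87.2 and 9.89. With these regions counted, Tm1 would be nearest to a summit of its own, which makes 5 members in place of 4.

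The 100 bp on each side of every summit were searched, on either strand, for the Snail site CAGGTG, which is also a match to the E-box CANNTG. Also searched were the motif CGATA and the longer TATCGATA (the DRE, which contains it), the motif GAGAG, the TATA box as TATAAA, and a relaxed site of the muscle factor Mef2, CTA and TAG with any 4 bases between them. CAGGTG was found at 2 of the 18 member summits (11.1%), those near Prm and rogdi, against 6.44% of all 4221 summits, and at none (0) of the 5 with an own start nearest. CANNTG was found at 13 (72.2%, all summits 62.6%) and CGATA at 8 (44.4%, all summits 55.1%). The DRE was at 1 summit, the strong fln peak (5.56%, all summits 17.7%). GAGAG was at 3 and TATAAA at 3 (16.7% each, all summits 29.2% and 22.2%), and the Mef2 site at none (0), against 4.55%. In the 795 member regions CAGGTG was found in 11.2%, against 9.98% of all candidate regions.

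In the stretch from 250 bases before to 50 after the most upstream start, CAGGTG was found for up, wupA and Mlp84B, 3 of 31 genes (9.68%), against 9.32% of coding genes, and none of these 3 starts had a thresholded peak. CANNTG was found for 74.2% (coding genes 77.2%), CGATA for 41.9% (47.4%) and GAGAG for 32.3% (29.7%). TATAAA was found for 8 members (25.8%) against 45.8% of coding genes. The DRE was found for mew alone (3.23%, coding genes 9.36%), and the Mef2 site for Act57B alone (3.23%, coding genes 5.47%). With 31 genes, 1 gene makes up 3.23% of the list.

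Genes that act with the members were counted in the same way, in lists that were also chosen with results known, and are to be read against the shares of coding genes, 52.7% within 5000 bp and 27.5% at an own start. Among 11 other sarcomere genes 8 had a summit within 5000 bp (72.7%) and 3 at an own start (27.3%, near the share of coding genes), the capping protein genes cpa (signal 244, with shg closer) and cpb (149) and the myosin chaperone gene unc-45 (174). Among 18 genes of integrin adhesion and tendon 13 had a summit in reach (72.2%) and 8 at an own start (44.4%), led by Pax (paxillin, 306), the tendon regulator sr (152) and the talin gene rhea (145). In the myoblast fusion list it was 11 and 6 of 17 (64.7% and 35.3%), with Nap1 (207, with kcc closer), Rac2 (103) and Vrp1 (102). Nap1 was matched by symbol alone. The gene so matched may not be the fusion gene known by that name, and the counts of this list include it. The 19 regulators of muscle fate had 13 and 8 (68.4% and 42.1%), with tin (182), lbe (150) and lbl (142), all 3 homeobox genes. The 12 nonmuscle counterparts, such as zip (nonmuscle myosin, 209), Mlc-c (213, with Pop1 closer) and Moe (moesin, 149), had 9 and 5 (75% and 41.7%).

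The 10 genes of excitation and contraction coupling had 4 and 4 (40% each, in reach below the 52.7% of coding genes), with the calcium pump gene SERCA (262) and the calcium channel genes Itpr (118) and RyR (95.6). The muscle structural genes, at 45.2% and 9.68%, were below coding genes on both counts, in reach by a few genes only. Actn and Itgbn each count in 2 of the lists, and no difference between lists was tested. In the calcium list the own-start peaks of SERCA, Itpr and RyR were in both replicates' own lists, and that of Cam was in neither. Those of mys and Tm1 among the members were in both. Of the genes named for the other lists, cpa, unc-45, Pax, Nap1, tin, lbl, zip and Mlc-c had theirs in both. The peaks of cpb, rhea, lbe and Moe were in the list of replicate 1 only. Those of sr, Rac2 and Vrp1 were in neither.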

How the data were processed

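ChIP-seq peak lists of 2 biological replicates of 1 group were used. Per the labels, coordinates are on dm6. Aligner and caller: not given in the sources used here; positions count from 1. The authors deposited ranked and thresholded lists per replicate (2876 and 2225 thresholded peaks), for the pooled replicates (4222, of which 4221 were on the main arms) and for the pair (3755). The signal of a region is the authors' deposited signal value. The q values are the authors' deposited −log10 values. The IDR of ranked regions is the authors' deposited score, a −log10 of the global IDR, converted back here.

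Computed here with Python 3.11.15 and numpy 2.4.6 were distances from summits to gene spans and starts of Ensembl release 115. Promoter meant within 500 bp of any start, then UTR, coding exon, noncoding exon, intron or intergenic. Lists overlapped at 1 bp or more, with bedtools 2.31.1 as a check. The counting was tested on simulated data. A replicate value is the strongest overlapping candidate region in that replicate's list. No test was run.

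The members, the 6 other lists and the motifs were chosen with earlier results of these data known. Named are all 31 members, in full those with a summit and the 5 strongest and 5 weakest at their starts, up to 3 genes per other list and the gene nearest to each summit; other named genes and the length bins were chosen after their values were seen. Unc-89 (as Obsc) and Arf51F (as Arf6) matched by an older symbol, and of the 90 entries in the other lists Fermt1, Fermt2 and Pitx1 were not matched. Alternatives were the pair list, each replicate's list, stronger, shared or merged peaks, other distances and windows, and, added after seeing the data, all regions at the IDR limit.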

Additional observations from a re-analysis of the deposited data

How the results depend on the processing

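The count of 14 members with a summit within 5000 bp was between 5 and 7 when 1 replicate's own list replaced the pooled list, 6 with the pooled peaks above the median signal, 4 with those that overlap a peak of both replicates (fln, Tm1, Msp300 and mys), 3 with no extension of the gene and 8 with 1000 bp. In these settings the share of coding genes fell as well, to 38.8%, 32.9%, 13.8% and 35.6% in the last 4. The count at own starts, 3, was 6 within 1000 bp of a start (19.4%, coding genes 30.2%). The count of 4 members nearest to a summit was between 1 and 2 in the replicates' own lists (Zasp52 in replicate 1, coding genes 17.1%; Tm1 and mys in replicate 2, coding genes 13.3%), 1 above the median signal (coding genes 13.8%) and 0 for peaks in both replicates (coding genes 11.2%). The median density of 0.901 regions per kb was 0.499 with overlapping regions merged and between 0.453 and 0.9 in the replicates, and the median start-site rank of 43.2% was between 40.3% and 50.9%; the cause was not tested. The pair list, with 12, 4 and 5 members, and the remaining settings stayed within 1.5 times or within the spread between replicates. The shares of coding genes in the pair list were 49.9%, 25.3% and 20.5% in the same order. Its genes differed in part: within 5000 bp it lacked Prm, wupA and TpnC73F and held up, and mew entered both other counts. Prm and TpnC73F, whose pooled summits held the CAGGTG matches, thus had no summit within 5000 bp in the pair list.

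Depth is unknown, so a gene with no region was not distinguishable from one too weakly covered. With 2 replicates and no control samples analysed, the spread of a signal rests on a pair of values, and 7 of the 18 member peaks were in neither replicate's own list. The authors' −log10 q of the 18 peaks ran from 0.326 to 3.35. The lowest values were at TpnC73F (0.326 and 0.705), wupA (0.787), Prm (0.962), TpnC47D (1.01), Act88F (1.12) and the intronic Zasp52 peak (1.27). The peaks with CAGGTG, those of Prm (0.962) and TpnC73F (0.705), are among these. Near a start shared or flanked by another gene, a summit cannot be given to one gene. No paired analysis was possible because the series has 1 group.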
